A study of Mus musculus with 20 samples.

Results

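The Schlafen genes were followed here in mouse bone marrow that carried either a mutant or a wild-type transgene of the splicing factor U2AF1, with or without the splicing modulator sudemycin D6. The 7 members are Slfn1, Slfn2, Slfn3, Slfn4, Slfn5, Slfn8 and Slfn9, picked by symbol from the 37620 genes of the deposited count table, and all 7 were found there. Their 189 splice junctions were taken from the 554616 junctions of the deposited junction table. The family was chosen because an exon of Slfn4 differed between the groups, so every value of Slfn4 below is a description without a test, and the other 6 genes were tested.

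Whole bone marrow of 20 mice was sequenced as ribosome-depleted total RNA, with 5 mice in each of 4 groups. All recipients had received marrow from doxycycline-inducible rtTA transgenic donors, had more than 6 weeks to engraft and ate doxycycline chow (625 ppm) for 7 days to switch the transgene on. Each transgene, U2AF1(WT) or U2AF1(S34F), was present in 10 mice, of which 5 received vehicle and 5 received sudemycin D6, infused through a jugular catheter on the last 5 of those days. Donor marrow was pooled from several animals before transplantation into irradiated wild-type hosts, so the mice of a genotype can share donors, and host cells that survive irradiation stay in the sample. Ages were not given for the individual mice. The comparisons share groups: each of the 4 groups enters at least 2 of the 5 comparisons.

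Schlafen proteins, named after the German word for sleep, were first described as growth-restraining genes of developing T cells. The short members (Slfn1, Slfn2) hold the core Schlafen domain, the intermediate members (Slfn3, Slfn4) add a linker region, and the long members (Slfn5, Slfn8, Slfn9) end in a helicase-like domain. Several of them are induced by type I interferon, Slfn2 keeps T cells and monocytes quiescent and shields tRNA from stress-induced cleavage, and Slfn4 is a myeloid gene that falls as macrophages mature.

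The family sits in a cluster on chromosome 11 (mm9) from 82764851 to 83100228, a span of 335.4 kb that holds 9 annotated Schlafen genes. In order along the chromosome these are Slfn5 (82764851 to 82776443, + strand), Slfn9 (82793131 to 82805332, − strand), Slfn8 (82815660 to 82834312, − strand), Slfn10-ps, Slfn2 (82878614 to 82884180, + strand), Slfn1 (82930351 to 82936172, + strand), Slfn4 (82988688 to 83003723, + strand), Slfn3 (83004832 to 83028656, + strand) and Slfn14-ps. Some members share stretches of sequence, which matters for assigning reads. Of all stretches of 126 exonic bases, the length of a read, 1.11% in Slfn8 and 2.74% in Slfn9 recurred elsewhere in the family, mostly in Slfn10-ps, and none did in the other 5 members. At 50 bases the shared part was 15.6% in Slfn8, 13.8% in Slfn9, 13.7% in Slfn3, 8.41% in Slfn4, 4.41% in Slfn2, 0.623% in Slfn1 and 0 in Slfn5, so a short overlap with a read could be ambiguous. Slfn5 is overlapped on the other strand by 1700003F17Rik (82755843 to 82774183), and the handling of strand during counting was not given in the sources used here, so their reads cannot be told apart in the gene counts. Junction reads were listed by strand. The + strand Slfn5 junction 82770792-82772179 had 686 reads over the vehicle and 245 over the sudemycin D6-treated U2AF1(WT) mice. In U2AF1(S34F) mice it had 512 and 403. The other Slfn5 junctions with a median of 20 or more reads were lower with the compound as well. In U2AF1(S34F) mice they went from 347 to 185, 170 to 141, 571 to 342, 709 to 390 and 641 to 433 reads. In U2AF1(WT) mice they went from 297 to 156, 168 to 93, 503 to 152, 642 to 220 and 723 to 335 reads.

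The gene counts of a library summed to 41145892 to 62138138 (median 51836276), and no 2 libraries agreed within sampling noise. U2af1 stood at 34.9 to 48.3 counts per 1000000 counts (CPM) in the 10 U2AF1(WT) mice and at 46.4 to 58.0 CPM in the 10 U2AF1(S34F) mice. The genotypes also differed in sex-linked transcripts: Xist had 39140 to 78640 counts in every U2AF1(WT) mouse and 1 to 8 in every U2AF1(S34F) mouse, and 4 Y-linked genes had 0 to 4 against 10270 to 15030 counts together. A difference between the genotypes therefore cannot be told apart from a difference between sexes. Whole marrow is a mixture, and a lower level can mean fewer cells of a type or less RNA per cell, which cannot be told apart either. Late neutrophil markers dominated (64430 to 147000 CPM summed over 12 genes), and no listed marker of a marrow cell type in the table was at 0 in all mice.

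Levels within the family spanned more than an order of magnitude. Per kilobase of exon, Slfn2 (group means 225 to 239 CPM per kb) and Slfn4 (216 to 273 CPM per kb) were the most abundant, and their ranges overlapped in every group. Within mice, Slfn4 was above Slfn2 in 5 of 5 sudemycin D6-treated U2AF1(WT) mice, in 4 of 5 sudemycin D6-treated U2AF1(S34F) mice and in 2 of 5 mice of each vehicle group. Slfn1 followed at 95.4 to 127 CPM per kb. The long members and Slfn3 were low, with group means of 7.96 to 12.02 CPM per kb for Slfn9, 7.51 to 8.49 for Slfn3, 3.73 to 9.04 for Slfn5 and 4.16 to 6.88 for Slfn8. Among these, the ranges of Slfn9 and Slfn3 overlapped in both U2AF1(WT) groups and not in the U2AF1(S34F) groups, and those of Slfn5 and Slfn8 in the sudemycin D6 groups and, under vehicle, in U2AF1(S34F) mice. Within mice, Slfn9 was above Slfn3 in all mice other than 2 of the 5 sudemycin D6-treated U2AF1(WT) mice. The lowest count of any of the 7 members in any mouse was 361 (Slfn5).

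**Figure D1:**
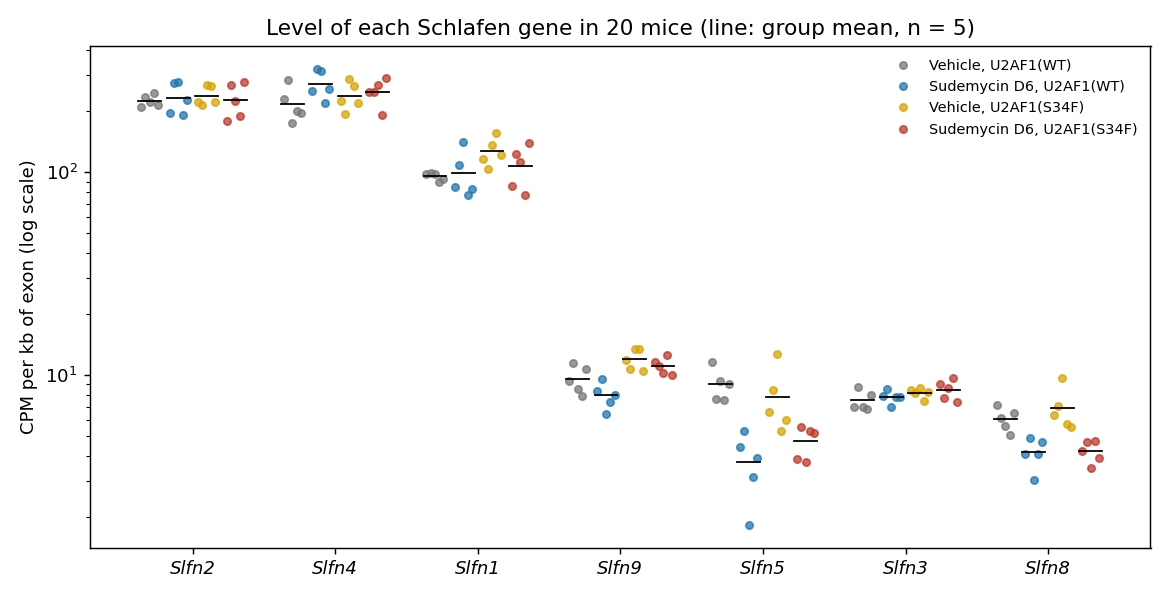
Level of the 7 Schlafen genes in CPM per kb of exon on a log axis, with 1 point for each of 20 mice, colours for the 4 groups and a line at each group mean (n = 5). Slfn2, Slfn4 and Slfn1 form an upper set with group means from 95.4 to 273 CPM per kb, and the other 4 lie between 3.73 and 12.02 CPM per kb.

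The long members Slfn5 and Slfn8 were lower with sudemycin D6 in both genotypes. In U2AF1(WT) marrow, Slfn5, a nuclear interferon-induced Schlafen protein, stood at 51.6, 33.9, 41.3, 33.3 and 39.9 CPM in vehicle-treated mice 1 to 5. In sudemycin D6-treated mice 6, 8, 9, 10 and 12 it stood at 19.6, 23.6, 8.11, 13.9 and 17.4 CPM. All 5 treated mice were below all 5 vehicle mice, and mouse 9 was the lowest. The mean dropped from 40.0 ± 7.39 to 16.5 ± 5.88 CPM (SD, n = 5 each), a log2 difference of −1.29 (SE 0.234, 95% interval −1.80 to −0.79, FDR = 0.0167 in edgeR's quasi-likelihood test) so that the mean fell by 59.2%. The call held without any 1 of the 10 mice.

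Slfn8, a long member of the same helicase-bearing class, moved less. It stood at 29.2, 25.3, 23.0, 20.8 and 26.8 CPM in vehicle-treated U2AF1(WT) mice 1 to 5 and at 16.7, 20.04, 12.5, 16.8 and 19.1 CPM in sudemycin D6-treated mice 6, 8, 9, 10 and 12. The highest treated mouse (20.04 CPM) was just below the lowest vehicle mouse (20.8 CPM). The log2 difference was −0.57 (SE 0.133, 95% interval −0.86 to −0.29, FDR = 0.0483), and the call was lost without vehicle-treated mouse 1 (log2 difference −0.51, FDR = 0.153) or mouse 5 (−0.55, FDR = 0.133). These were the 2 called genes among the 6 tested members, both lower, where 3.07% of the 14763 genes tested in this comparison were called, 1.18% higher and 1.89% lower, and where 4.05% of all genes had groups that did not overlap. That background of 453 called genes fell by more than 1.5 times without vehicle-treated mouse 1, 3 or 5 or treated mouse 8 or 12 (191 at the lowest), rose to 730 without vehicle-treated mouse 2, and lay between 243 and 1072 under other settings. Slfn9 was 37.6 ± 5.43 against 45.3 ± 6.99 CPM and was not called (log2 difference −0.29, SE 0.124, FDR = 0.322).

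In U2AF1(S34F) marrow the same 2 members fell, again 2 of 6 called where 10.8% of 14714 genes were called (4.94% higher, 5.85% lower) and 7.58% had no overlap. Slfn8 stood at 26.0, 28.98, 39.7, 23.5 and 22.6 CPM in vehicle-treated mice 1, 3, 5, 7 and 11 and at 17.3, 19.3, 14.2, 19.4 and 16.0 CPM in sudemycin D6-treated mice 2, 6, 9, 10 and 12. The groups did not overlap, and mouse 5 stood highest of all 20 mice. The log2 difference was −0.71 (SE 0.149, 95% interval −1.03 to −0.38, FDR = 0.0207), and it stayed called without any 1 mouse, at −0.55 without mouse 5. Slfn5 stood at 29.2, 37.5, 56.0, 23.4 and 26.5 CPM under vehicle and at 17.03, 24.7, 16.6, 23.6 and 22.9 CPM under sudemycin D6, in the same order of mice. Here the groups overlapped, since vehicle-treated mouse 7 (23.4 CPM) lay below 2 of the treated mice. The log2 difference was −0.72 (SE 0.231, 95% interval −1.23 to −0.21, FDR = 0.0945), a call close to the threshold of 10% that was lost without vehicle-treated mouse 1 or 3 or any 1 of the 5 treated mice (FDR 0.115 to 0.188), in a model of all 20 mice (FDR = 0.133) and with no filter on low counts (FDR = 0.199). Without vehicle-treated mouse 5 the difference was −0.48 (FDR = 0.0995).

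Marrow with both the mutant and the compound, set against vehicle-treated U2AF1(WT) marrow, had Slfn5 at a log2 difference of −0.93 (SE 0.142, FDR = 0.000339) and Slfn8 at −0.54 (SE 0.109, FDR = 0.00183), with no overlap for either gene. These 2 of 6 stand beside a background of 50.2% of 14761 genes called, 25.1% lower, and 23.5% without overlap. The interaction of genotype and drug did not pass the test for Slfn5 (log2 difference of the drug differences 0.55, SE 0.348, 95% interval −0.17 to 1.28, FDR = 0.77). For Slfn8 the interaction was −0.15 (SE 0.206, 95% interval −0.58 to 0.28). edgeR called 0 of the 6 members for the interaction and DESeq2 called 0, with 0 of 6 at an unadjusted p under 0.05, and edgeR called 2 of 15392 genes (0.013%) in all.

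**Figure D2:**
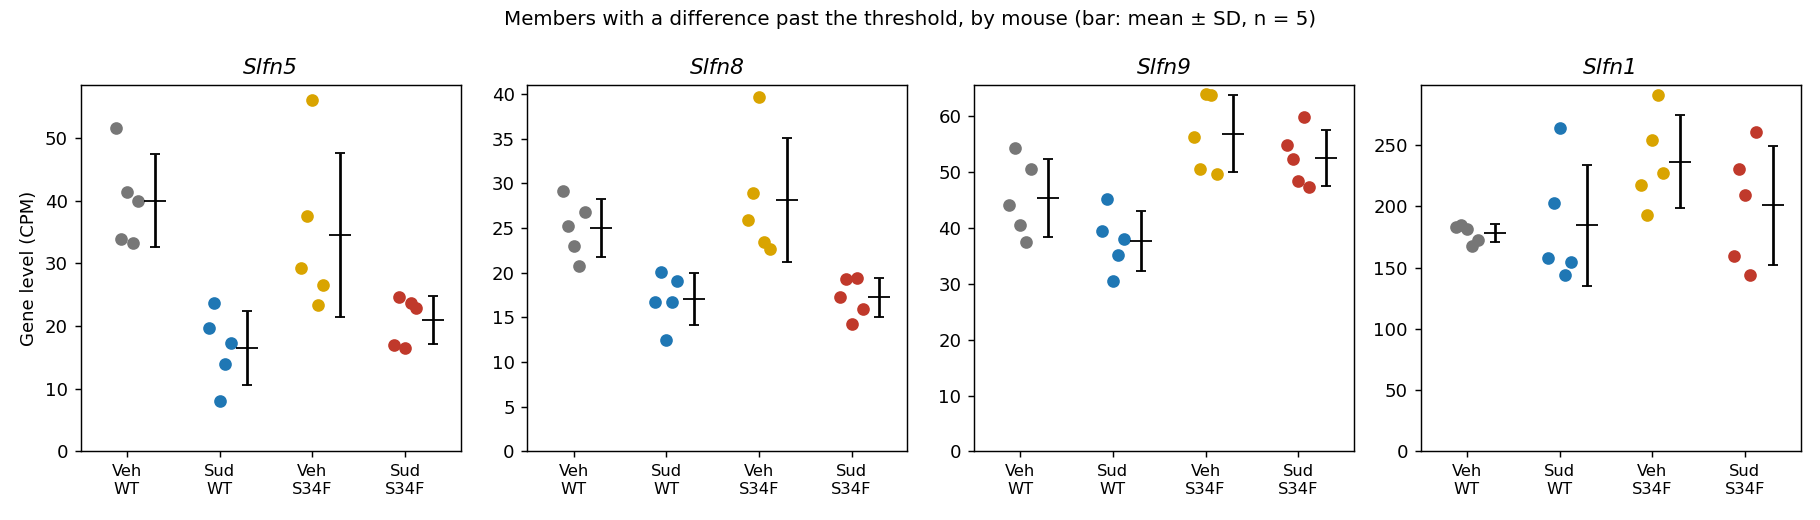
Level of Slfn5, Slfn8, Slfn9 and Slfn1 in CPM by mouse in the 4 groups (points), with the mean ± SD of 5 mice as a black bar and every axis starting at 0. Slfn8 separates by treatment in both genotypes, and Slfn5 separates in U2AF1(WT) but overlaps in U2AF1(S34F) mice, where vehicle-treated mouse 7 lies at 23.4 CPM.

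Between genotypes, Slfn9 was called under both treatments and Slfn1 under vehicle. Slfn9, the neighbour of Slfn5 on the chromosome, was higher in U2AF1(S34F) marrow. Under sudemycin D6 it stood at 39.5, 45.2, 30.5, 35.1 and 37.9 CPM in U2AF1(WT) mice 6, 8, 9, 10 and 12 and at 54.8, 52.3, 48.3, 59.7 and 47.3 CPM in U2AF1(S34F) mice 2, 6, 9, 10 and 12. All mutant mice were above all wild-type mice, and the log2 difference was 0.48 (SE 0.101, 95% interval 0.26 to 0.70, FDR = 0.00533), a rise of 39.1%. It was the 1 member called of 6, where 36.8% of 14677 genes were called (17.2% higher, 19.6% lower) and 19.0% had no overlap. The call held without any 1 of the 10 mice.

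Under vehicle, Slfn9 stood at 44.0, 54.3, 40.5, 37.4 and 50.5 CPM in U2AF1(WT) mice 1 to 5 and at 56.3, 50.5, 63.9, 63.7 and 49.6 CPM in U2AF1(S34F) mice 1, 3, 5, 7 and 11. These groups overlapped, and the log2 difference of 0.31 (SE 0.113, 95% interval 0.07 to 0.56, FDR = 0.0497) lost its call without U2AF1(WT) mouse 3 or 4 or U2AF1(S34F) mouse 5 or 7 (log2 difference 0.26 to 0.28, FDR 0.103 to 0.118). Slfn5 and Slfn8 were not called between genotypes, with log2 differences of −0.22 (FDR = 0.482) and 0.16 (FDR = 0.437) under vehicle and of 0.34 (FDR = 0.302) and 0.01 (FDR = 0.953) under sudemycin D6. Without vehicle-treated U2AF1(S34F) mouse 5, the highest mouse for Slfn5, that gene was lower in the mutant under vehicle (−0.47, FDR = 0.0316).

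Slfn1, the short member for which the growth-restraining activity was described, stood at 183, 185, 182, 168 and 173 CPM in vehicle-treated U2AF1(WT) mice 1 to 5 and at 217, 193, 254, 291 and 227 CPM in vehicle-treated U2AF1(S34F) mice 1, 3, 5, 7 and 11. The groups did not overlap, and the wild-type mice lay close together, between 168 and 185 CPM. The log2 difference was 0.40 (SE 0.105, 95% interval 0.17 to 0.63, FDR = 0.0121), a rise of 32.0%, and the call held without any 1 mouse (0.31 without mouse 7). Slfn1 and Slfn9 were the 2 of 6 members called under vehicle, where 39.5% of 14817 genes were called (19.7% higher, 19.8% lower) and 19.7% had no overlap. The 2 of 6 were thus near the background. Under sudemycin D6 the Slfn1 levels spread out, from 144 to 264 CPM in U2AF1(WT) and from 144 to 260 CPM in U2AF1(S34F) mice, and the log2 difference of 0.12 (SE 0.192, 95% interval −0.29 to 0.54) did not pass (FDR = 0.673).

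The summed late neutrophil markers were read beside Slfn1. Summed over the 12 markers they stood at 69500 to 78320 CPM in vehicle-treated U2AF1(WT) and at 90080 to 147000 CPM in vehicle-treated U2AF1(S34F) mice, where 4 markers were higher and 1 lower, and mouse 7 was the highest for both the markers and Slfn1. Their median log2 difference was 0.096 against 0.002 over all genes, and 39.5% of all genes were called there (19.7% higher, 19.8% lower). The sum follows the most abundant markers most, of which S100a9 was the highest. Among sudemycin D6-treated U2AF1(WT) mice the markers stood at 92200 CPM in mouse 8 and 114100 CPM in mouse 9 and at 64430 to 71410 CPM in the other 3, and Slfn1 stood at 203 and 264 CPM in mice 8 and 9 and at 144 to 158 CPM in the others. Their part in the Slfn1 result was not tested.

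Slfn2, the abundant short member, and Slfn3, an intermediate member, were not called in any comparison. Slfn2 had group means of 375, 388, 397 and 380 CPM in the order vehicle U2AF1(WT), sudemycin D6 U2AF1(WT), vehicle U2AF1(S34F) and sudemycin D6 U2AF1(S34F), with log2 differences from −0.07 to 0.07 and a widest interval of −0.36 to 0.30, for genotype under sudemycin D6. Slfn3 had group means of 13.6, 14.2, 14.9 and 15.4 CPM, with log2 differences from 0.04 to 0.18 in the 5 comparisons. A missed threshold does not show equal levels, and the intervals for Slfn3 allowed a log2 difference of up to 0.40 in marrow with both mutant and compound.

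The gene count of Slfn4, given without a test, stood at 916, 1140, 697, 805 and 781 CPM in vehicle-treated U2AF1(WT) mice 1 to 5. It stood at 1010, 1297, 1258, 877 and 1033 CPM in sudemycin D6-treated U2AF1(WT) mice 6, 8, 9, 10 and 12, and at 904, 774, 1157, 1062 and 880 CPM in vehicle-treated U2AF1(S34F) mice 1, 3, 5, 7 and 11. The sudemycin D6-treated U2AF1(S34F) mice 2, 6, 9, 10 and 12 had 998, 1000, 1082, 763 and 1166 CPM. The groups overlapped in all 5 comparisons, and the log2 difference was 0.13 for genotype under vehicle, −0.13 for genotype under sudemycin D6, 0.31 and 0.07 for drug in U2AF1(WT) and U2AF1(S34F) marrow and 0.21 for both.

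Among the relatives outside the chosen set, Slfn10-ps (group means 6.08 to 6.65 CPM) and Slfn14-ps (0.997 to 1.71 CPM) were not called in any comparison. Slfnl1, a distant relative outside the cluster, stayed at or below 0.314 CPM in every mouse, passed the filter on low counts only for genotype under sudemycin D6 and for the interaction, and was called in neither.

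**Figure D3:**
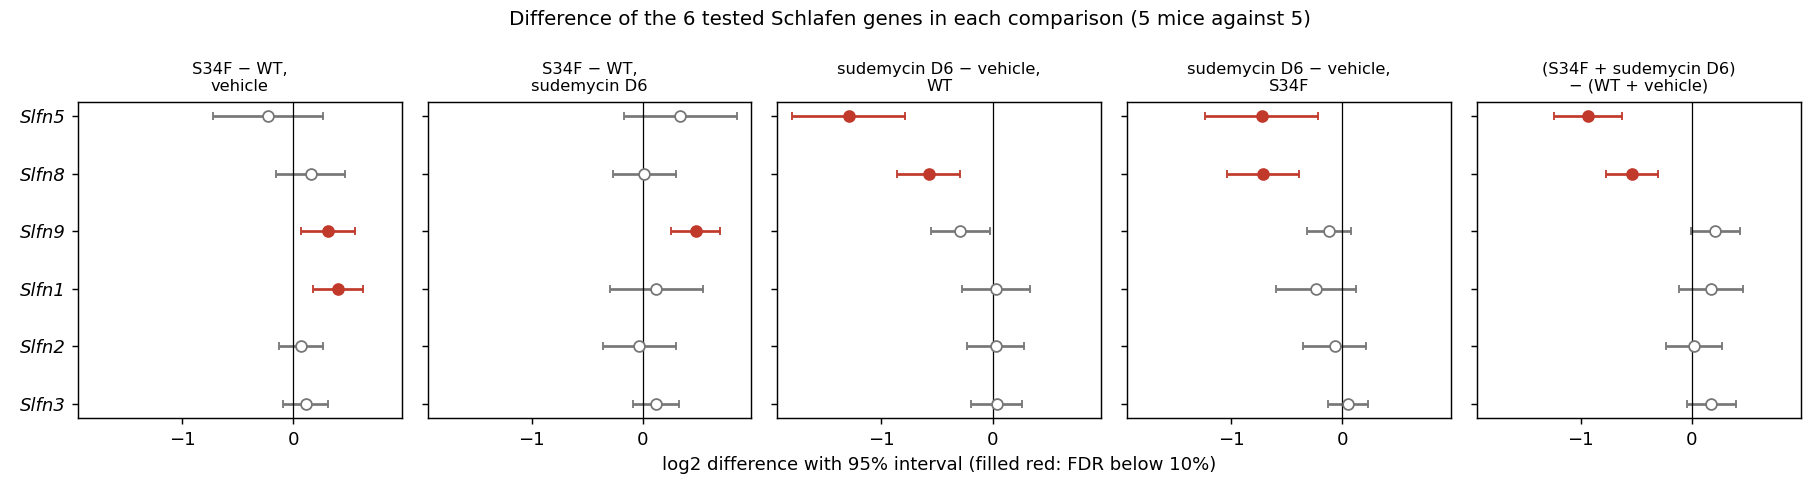
Log2 difference of the 6 tested Schlafen genes with its 95% interval in the 5 comparisons (5 mice against 5), filled red where FDR was below 10%. Slfn5 and Slfn8 lie left of 0 in the 3 right panels, from −1.29 to −0.54, and Slfn9 and Slfn1 lie right of 0 in the left panel.

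Because several Schlafen genes respond to interferon, 38 interferon-stimulated genes were read beside them, 37 of which were in the table under these symbols and tested. Under sudemycin D6 in U2AF1(S34F) marrow 23 of 37 were lower and 0 higher, led by Ifit3 (log2 difference −2.72), Ifit1 (−1.93) and Isg15 (−1.69), which are all antiviral effectors, and the median of the list was −0.81 against −0.009 over all genes. This count of 23 became 15 in the model of all mice. Over all genes 5.85% were lower and 4.94% higher in this comparison. In U2AF1(WT) marrow, where 1.89% of all genes were lower, 5 were lower and 0 higher, led by Mx2 (−1.51), Ifi27l2a (−1.39) and Mx1 (−1.03). The list median was −0.19 against 0.004 over all genes. The count of 5 rose to 16 without sudemycin D6-treated mouse 8. It fell to 3 without vehicle-treated mouse 1 or 3 or treated mouse 9, 10 or 12, and to 4 without any other 1 mouse. Under vehicle, U2AF1(S34F) marrow had 12 higher, led by Iigp1 (1.81) and Gbp2 (1.78), and 1 lower, Ifi44 (−1.64), with a median of 0.25 against 0.002 over all genes. These 13 of 37 were no larger a share than the 39.5% called among all genes in either direction. By direction, 12 were higher where 19.7% of all genes were, and 1 was lower where 19.8% were. The count of 13 fell to 7 without U2AF1(WT) mouse 3, to 8 without mouse 4 or 5, to 5 in the model of all mice and to 7 at FDR 5%. Under sudemycin D6 the genotype comparison had 2 higher and 5 lower (median −0.23 against −0.027), where 36.8% of all genes were called (17.2% higher, 19.6% lower). This count of 7 fell to 4 without treated U2AF1(S34F) mouse 2, 9 or 10, with no filter or at FDR 5%. Marrow with both mutant and compound had 2 higher and 21 lower, led by Ifi44 (−3.29, median of the list −0.34 against −0.003). Of all genes 50.2% were called there, 25.1% higher and 25.1% lower, and this count of 23 became 14 in the model of all mice. Of 17 interferon signalling genes, those lower with the compound in U2AF1(S34F) marrow included Usp18 (−1.64), Irf9 (−0.55) and Irf1 (−0.49), and 0 were called in U2AF1(WT) marrow.

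Mouse by mouse, the summed interferon-stimulated genes stood at 860 to 1057 CPM in vehicle-treated U2AF1(WT) and at 705 to 830 CPM in sudemycin D6-treated U2AF1(S34F) mice, without overlap. In sudemycin D6-treated U2AF1(WT) mice the sum was 666, 1623, 778, 669 and 744 CPM for mice 6, 8, 9, 10 and 12. The vehicle-treated U2AF1(S34F) group had 954, 916, 1598, 1156 and 998 CPM in mice 1, 3, 5, 7 and 11. A single mouse stood high in each of these groups. Mouse 5 also had the highest Slfn5 (56.0 CPM) and Slfn8 (39.7 CPM) of the 20 mice. Mouse 8, with the highest sum of all, had Slfn5 at 23.6 CPM and Slfn8 at 20.04 CPM, both below every vehicle-treated mouse of its genotype and both the highest of the 5 treated mice in its group. Without mouse 8 the log2 difference of Slfn5 was −1.45 (FDR = 0.0103) and that of Slfn8 −0.64 (FDR = 0.0508).

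**Figure D4:**
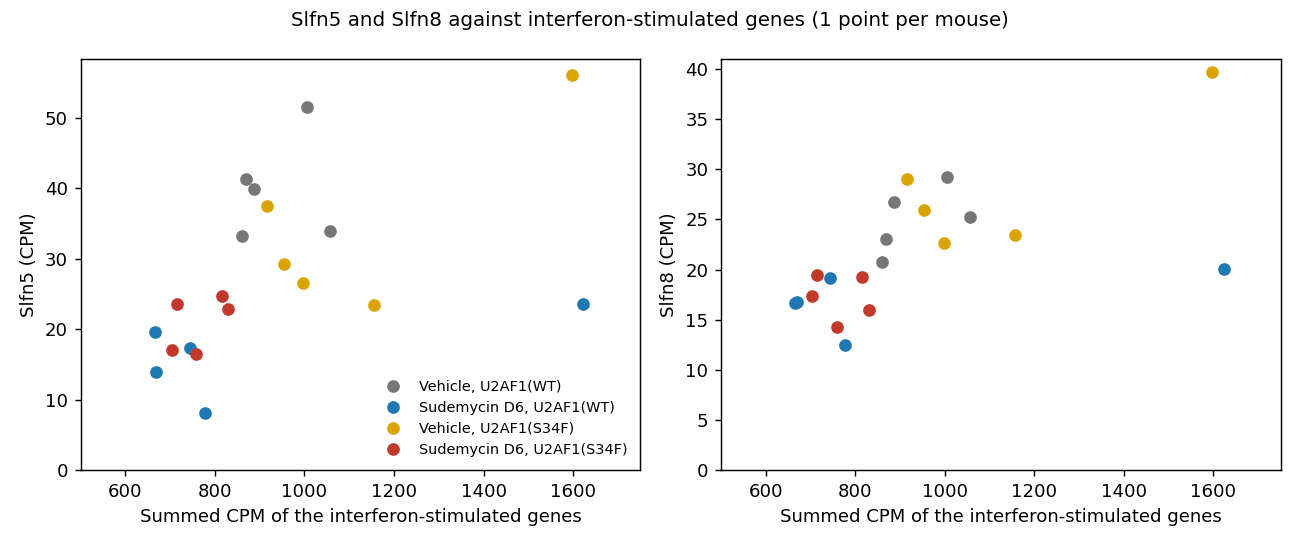
Slfn5 (left) and Slfn8 (right) in CPM against the summed CPM of the interferon-stimulated genes, with 1 point for each of 20 mice and colours for the 4 groups. Sudemycin D6-treated mice of both genotypes lie at low values of both, apart from U2AF1(WT) mouse 8 at a sum of 1623 CPM, whose Slfn5 and Slfn8 (23.6 and 20.04 CPM) were the highest of its group and below every vehicle-treated U2AF1(WT) mouse.

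The promoters of the members, from 250 bases before to 50 bases after the start, were read from RefSeq (GRCm38.p6, whose coordinates differ from mm9), where all 7 had an entry. They are shown because short runs in them separate the long from the shorter members. A repeat of GAAA after a gap of 2 bases (a repeat of TTTC when read on the other strand), which resembles an interferon-stimulated response element, was found in the 3 long members and in none of the others, and in 3.44% of 32851 mouse promoters. Each line gives the window with the repeat in capitals and the place of the first capital relative to the start (Slfn8 has a second start, from which the place is −136).
Slfn5 (chr11:82951937-82951966, + strand, −155): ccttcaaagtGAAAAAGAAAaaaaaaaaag
Slfn8 (chr11:83020839-83020868, − strand, −48): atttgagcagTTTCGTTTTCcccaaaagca
Slfn9 (chr11:82991856-82991885, − strand, −45): atccgagcagTTTCGTTTTCccaaaaacaa

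The 4 shorter members instead shared the run ACTTCCTGG (CCAGGAAGT on the other strand), found in 0.843% of all promoters and in none of the long members.
Slfn1 (chr11:83116736-83116765, + strand, −74): gatgtctcacACTTCCTGGagtgacatcaa
Slfn2 (chr11:83065047-83065076, + strand, −55): cagggctttcACTTCCTGGagggtgacagt
Slfn3 (chr11:83191278-83191307, + strand, −42): ggatgacagaACTTCCTGGgggagggactc
Slfn4 (chr11:83175103-83175132, + strand, −73): ttccggttatACTTCCTGGagtgacgaaat

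The letters of this run were chosen after the sequences were seen, so the match is a description only. The repeat TTCNNNGAA, which reads the same on both strands, was in 0 of the members' promoters and in 8.3% of all. A match marks letters, not binding, and Slfn9 carried the spaced repeat without being called in either drug comparison.

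Quiescence genes were read because Schlafen proteins restrain growth. Of 16 such genes 3 were lower with sudemycin D6 in U2AF1(WT) marrow, namely Btg1 (−0.96), Btg2 (−0.82) and Klf6 (−0.59), and 2 in U2AF1(S34F) marrow, Btg2 (−0.80) and Btg1 (−0.63). Over all genes 1.89% were lower with sudemycin D6 in U2AF1(WT) and 5.85% in U2AF1(S34F) marrow. Between genotypes under vehicle 12 were lower in U2AF1(S34F) marrow, led by Klf2 (−2.38), Btg2 (−1.35) and Foxo1 (−1.29), and Cdkn1c was higher (0.93), while under sudemycin D6 10 were lower. Over all genes 19.8% were lower and 19.7% higher between genotypes under vehicle, and 19.6% were lower under sudemycin D6. Of 13 genes of tRNA cleavage and its sensing, the process Slfn2 acts on, 10 passed the filter, 0 were called with the compound in U2AF1(WT) and Rnh1 (0.29) and Elac2 (0.24) were higher in U2AF1(S34F) marrow. With the compound, 3.07% of all genes were called in U2AF1(WT) marrow and 4.94% were higher in U2AF1(S34F) marrow.

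The genes around the cluster were read as well. Of the 5 nearest tested genes on each side, 0 of 10 were called with sudemycin D6 in U2AF1(WT) marrow, and in U2AF1(S34F) marrow Rad51l3, a recombination gene, was lower (−0.29, FDR = 0.0265). Under vehicle Lig3 (0.24, FDR = 0.0174) and 1700020L24Rik (0.41, FDR = 0.0226) were higher in U2AF1(S34F) marrow, and under sudemycin D6 Rad51l3 was lower (−0.38) and Mmp28 higher (0.45). The medians over the 10 genes lay between −0.07 and 0.08. Of all genes, 3.07% were called for drug in U2AF1(WT) and 10.8% in U2AF1(S34F) marrow. For genotype, 39.5% were called under vehicle and 36.8% under sudemycin D6.

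Some markers of other marrow cells were called in the same comparisons as Slfn5 and Slfn8. With the compound, 1.89% of all genes were lower in U2AF1(WT) marrow, and 5.85% were lower and 4.94% higher in U2AF1(S34F) marrow. With sudemycin D6 in U2AF1(WT) marrow, 2 of 9 stem and progenitor, 2 of 12 B cell and 1 of 8 dendritic markers were lower. In U2AF1(S34F) marrow, 5 of 9 stem and progenitor, 3 of 12 T cell, 2 of 12 B cell and 3 of 7 dendritic markers were lower and 3 of 10 monocyte markers were higher. Of the other lists, late neutrophil markers had 1 of 12 lower in each genotype, macrophage markers 1 of 10 lower in U2AF1(WT) marrow, and erythroid (2 of 10), megakaryocyte (2 of 8), NK cell (1 of 8) and neutrophil precursor markers (1 of 7) were lower in U2AF1(S34F) marrow. With both mutant and compound, where 50.2% of all genes were called (25.1% higher, 25.1% lower), 12 of 12 B cell, 12 of 12 T cell, 6 of 8 dendritic, 5 of 10 erythroid and 5 of 9 stem and progenitor markers were lower and 0 of each were higher. Of the rest there, megakaryocyte markers had 1 higher and 4 lower of 8, monocyte markers 2 higher and 4 lower of 10, macrophage markers 1 higher and 1 lower of 10, late neutrophil markers 4 higher and 2 lower of 12, neutrophil precursor markers 4 higher of 7 and NK cell markers 2 higher of 8.

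Some markers were also called in the genotype comparisons in which Slfn1 and Slfn9 were called. Under vehicle, where 39.5% of all genes were called (19.7% higher, 19.8% lower), 5 of 7 neutrophil precursor and 5 of 8 NK cell markers were higher, 5 of 10 monocyte, 2 of 12 T cell and 1 of 10 erythroid markers were lower, and 0 of 12 B cell markers were called. Macrophage markers had 3 higher and 1 lower of 10, stem and progenitor markers 2 and 2 of 9, and dendritic and megakaryocyte markers 1 and 1 of 8 each. Under sudemycin D6, where 36.8% of all genes were called (17.2% higher, 19.6% lower), 9 of 12 T cell, 7 of 12 B cell, 3 of 10 erythroid, 2 of 7 dendritic, 2 of 8 megakaryocyte and 1 of 9 stem and progenitor markers were lower. Neutrophil precursor markers had 4 higher of 7, monocyte markers 4 higher and 1 lower of 10, late neutrophil markers 2 higher and 1 lower of 12, macrophage markers 1 higher of 10, and 0 of 8 NK cell markers were called. Bst2 is in both the dendritic and the interferon list. The stem and progenitor sum stood at 105 to 149, 60.7 to 134, 132 to 160 and 82.5 to 116 CPM in the usual order of groups, and the dendritic sum at 70.1 to 120, 57.1 to 98.1, 86.0 to 132 and 56.5 to 84.4 CPM. The B cell sum spread widely within groups, from 33.7 to 243 CPM in sudemycin D6-treated U2AF1(WT) mice. The T cell sum stood at 39.7 to 60.8, 32.2 to 72.3, 38.7 to 74.1 and 32.8 to 38.1 CPM in the usual order of groups, so that mice with both mutant and compound did not overlap either vehicle group. The part of these cells in the levels of Slfn1, Slfn5, Slfn8 and Slfn9 was not tested.

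The Slfn4 exon that singled out the family is an exon of 86 bases in the 5′ untranslated region (chr11:82989330-82989415, + strand), one of the noncoding exons before the exon with the start codon. The exon after it has a pair of annotated acceptors 6 bases apart. U2AF1 reads the AG at the end of the intron and is known to weigh the base before it. Only some of the acceptors read are shown. In the others that base was C in Slfn4 (start codon exon, the exon before it, second coding exon and an unannotated acceptor). It was also C in Slfn3 (unannotated and coding exon) and the Slfn5 cassette exon, and G in the Slfn8 cassette exon. A link of this base to inclusion was not tested. The base is in capitals in the windows of 20 intronic and 7 exonic bases (mm9).
Slfn4 untranslated exon (chr11:82989310-82989336): cgggttccctatcctctTagagacctg
Slfn4 next exon, upstream acceptor (chr11:82989553-82989579): ttttgatttgttcccccAagaaacaga
Slfn4 next exon, downstream acceptor (chr11:82989559-82989585): tttgttcccccaagaaaCagatccttc
Slfn4 last exon (chr11:83002145-83002171): atgtttcttttcttgtcTagtgatgcc
Slfn1 unannotated exon (chr11:82931231-82931257): agcaattttttttatttCagtgctcag
Slfn1 annotated coding exon (chr11:82934503-82934529): atgtctctgtctaattaTaggtgagga

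Reads joining into the Slfn4 exon numbered 1381 to 3730 per mouse, reads leaving it to the upstream acceptor 369 to 961, and reads skipping it to the same acceptor 232 to 656. Inclusion was taken as the mean of both inclusion junctions over that mean plus the skipping reads (percent spliced in, Ψ). In vehicle-treated U2AF1(WT) mice 1 to 5 it was 79.5%, 81.1%, 79.0%, 81.4% and 80.9%, and with the mutant under vehicle in mice 1, 3, 5, 7 and 11 it was 75.3%, 78.6%, 77.5%, 75.5% and 69.0%. In sudemycin D6-treated U2AF1(WT) mice 6, 8, 9, 10 and 12 it was 73.5%, 77.1%, 78.1%, 71.4% and 74.0%, and in sudemycin D6-treated U2AF1(S34F) mice 2, 6, 9, 10 and 12 it was 67.4%, 69.3%, 65.3%, 66.6% and 68.3%.

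Vehicle-treated U2AF1(WT) mice were above all others, and mutant and compound together gave the lowest group apart from an overlap through vehicle-treated U2AF1(S34F) mouse 11. The group means were 80.4% ± 1.06, 74.8% ± 2.75, 75.2% ± 3.71 and 67.4% ± 1.54 (SD, n = 5) in the order vehicle U2AF1(WT), sudemycin D6 U2AF1(WT), vehicle U2AF1(S34F) and sudemycin D6 U2AF1(S34F). As a fraction, Ψ differed by −0.0523 for genotype under vehicle, by −0.0742 for genotype under sudemycin D6, by −0.0558 and −0.0777 for drug in U2AF1(WT) and U2AF1(S34F) marrow and by −0.13 for both. The gap between the nearest mice was 0.0049 for genotype under vehicle and 0.0094 for drug in U2AF1(WT) marrow, both smaller than the SDs of the groups. With the acceptor 6 bases further on in place of the upstream one, a choice made after the values were seen, the means were 79.5%, 74.6%, 76.6% and 67.3%, and the groups then overlapped for genotype under vehicle and for drug in U2AF1(WT) mice. With every annotated skipping junction counted, the means were 64.6%, 58.6%, 57.9% and 48.6%, and the drug groups overlapped in each genotype. With the downstream inclusion junction alone, the drug groups overlapped in U2AF1(WT) mice only. In these last settings the genotypes did not overlap under vehicle or under sudemycin D6.

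Other splice choices of Slfn4 were read the same way. The form of the exon that is 20 bases longer took 28.1%, 28.8%, 28.1% and 29.3% of the reads leaving the exon in the same order of groups, and the upstream acceptor of the next exon took 49.6%, 50.5%, 52.5% and 50.6% of the skipping reads, with overlap in every comparison. The next exon, 723 bases long from its downstream acceptor, was itself skipped in 3.08% ± 0.415, 1.93% ± 0.738, 4.12% ± 0.542 and 3.53% ± 0.820 of reads. Those groups overlapped in all 5 comparisons, in sudemycin D6-treated U2AF1(WT) marrow through mouse 8 (3.23%), since the other 4 mice lay between 1.40% and 1.76%.

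Further into Slfn4, reads from the exon before the start codon can pass over both the exon with the start codon (chr11:82998770-82998948) and the next coding exon (chr11:83000027-83001066) to the last exon, a pairing that an annotated transcript holds. This share was 8.84%, 8.53%, 10.3%, 7.77% and 13% in vehicle-treated U2AF1(WT) mice 1 to 5 and 12.5%, 9.30%, 17.2%, 11.7% and 9.48% in sudemycin D6-treated U2AF1(WT) mice 6, 8, 9, 10 and 12. With U2AF1(S34F) it was 8.51%, 6.76%, 5.92%, 4.82% and 5.73% under vehicle (mice 1, 3, 5, 7 and 11) and 9.87%, 11.8%, 8.87%, 8.96% and 8.69% under sudemycin D6 (mice 2, 6, 9, 10 and 12). The U2AF1(S34F) groups did not overlap, with a gap of 0.0018 as a fraction, and the U2AF1(WT) groups did. Joint skipping was picked after its values were seen, and how many junction shares over all genes lacked overlap was not counted. For gene levels in CPM it was 7.58% of all genes for drug in U2AF1(S34F) marrow. Skipping of the start codon exon alone stood at 9.08%, 8.72%, 8.24% and 7.55% in the usual order of groups, with overlap in all 5 comparisons.

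**Figure D5:**
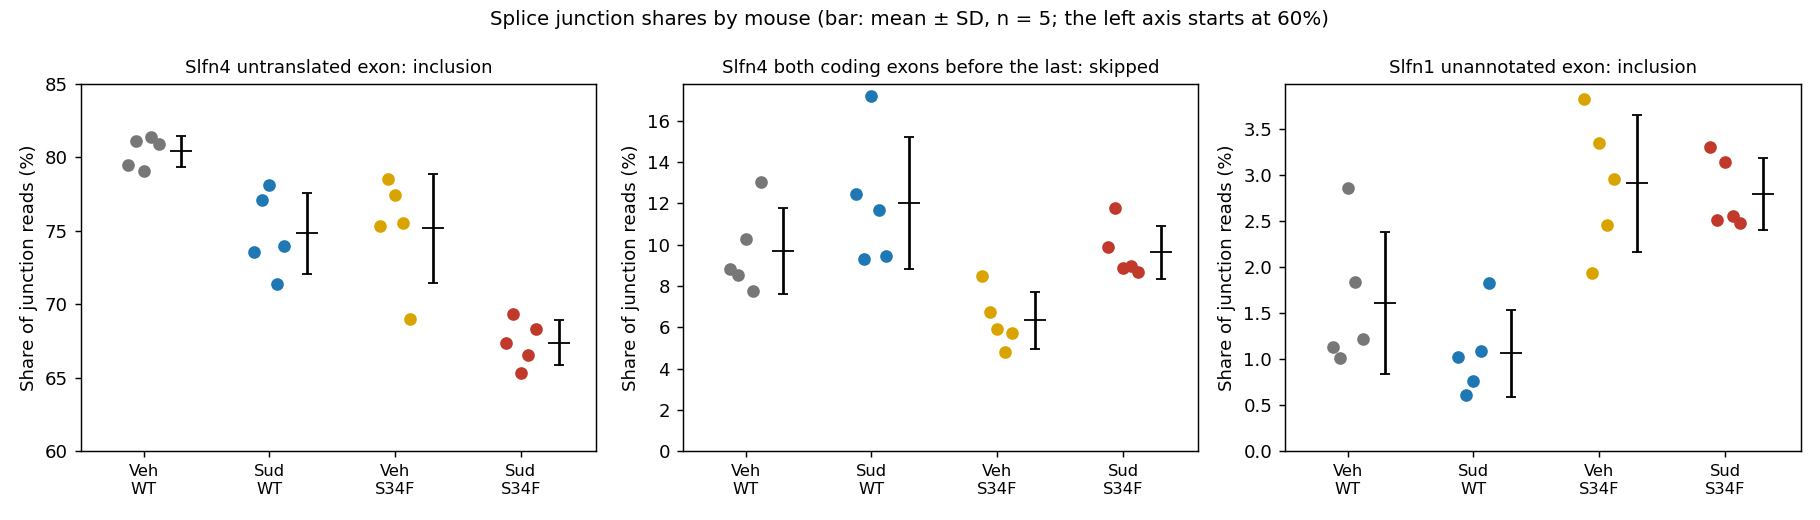
Share of junction reads by mouse in the 4 groups (points), with the mean ± SD of 5 mice as a black bar: inclusion of the Slfn4 untranslated exon (left, axis from 60%), joint skipping of the Slfn4 start codon exon and the next coding exon (middle) and inclusion of the unannotated Slfn1 exon (right). Inclusion of the Slfn4 exon runs from 80.4% to 67.4% across the groups, and the Slfn1 exon is at 2.80% to 2.91% in both U2AF1(S34F) groups and 1.06% to 1.61% in both U2AF1(WT) groups.

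Among cassette exons outside Slfn4, 6 to 9 events of the members had enough reads per comparison, and edgeR called 0 of them in each of the 5 comparisons, where 3.34% (genotype under vehicle), 2.98% (genotype under sudemycin D6), 1.24% (drug in U2AF1(WT)), 1.36% (drug in U2AF1(S34F)) and 4.67% (both together) of 54118 to 58319 events were called. Events were assigned by their middle exon, so these include a Slfn3 exon joined from the Slfn4 donor at 82998948. At an unadjusted p under 0.05 there was 1 event in the vehicle genotype comparison and 0 in the others. That event was the Slfn9 exon at chr11:82804444-82804559, at a Ψ difference of 0.0307 (FDR = 0.37). limma on Ψ called 0 member events, and it called fewer of all events than edgeR. With 6 to 9 events and such low shares over all events, 0 calls carry little weight. The Slfn5 exon of 66 bases (chr11:82768219-82768284) was included in 71.9%, 65.2%, 72.9% and 65.3% of reads and the Slfn8 exon of 116 bases (chr11:82833415-82833530) in 73.8%, 73.2%, 77.9% and 78.3%, in the usual order of groups. These values rest on 33 to 304 inclusion reads and 4 to 65 skipping reads per mouse, and within a group Ψ had SDs of 5.57 to 10.1 percentage points.

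Junctions with an end outside the annotation, picked after their values were seen, were common in Slfn3, where they took 33.8% of the reads, against 0.34% in Slfn5 and 5.59% in Slfn1. An unannotated Slfn1 exon of 99 bases (chr11:82931251-82931349) was included in 1.13%, 1.01%, 2.86%, 1.84% and 1.22% of reads in vehicle-treated U2AF1(WT) mice 1 to 5 and in 3.83%, 1.94%, 3.35%, 2.46% and 2.96% of reads in mice 1, 3, 5, 7 and 11 with U2AF1(S34F) under vehicle. Under sudemycin D6 it was 1.02%, 0.606%, 0.773%, 1.09% and 1.83% in U2AF1(WT) mice 6, 8, 9, 10 and 12 and 3.30%, 2.51%, 3.14%, 2.55% and 2.48% in U2AF1(S34F) mice 2, 6, 9, 10 and 12. The genotypes overlapped under vehicle and did not under sudemycin D6, with a gap of 0.0065 as a fraction. How many junction shares over all genes lacked overlap was not counted. For gene levels in CPM it was 19.0% of all genes in this comparison. An unannotated Slfn3 exon of 167 bases (chr11:83007545-83007711) was included in 50.4% ± 6.47, 40.5% ± 8.79, 45.5% ± 7.02 and 35.9% ± 9.24 of reads in the usual order of groups, with overlap in every comparison.

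Junctions assigned to a Schlafen gene together with another gene were rare, 22 with 623 reads in all 20 mice, against 560999 reads on the junctions of Slfn4. The other genes were Schlafen genes or pseudogenes, apart from AI662270 (11 reads, with Slfn3) and Gm11425 (2 reads, with Slfn8, Slfn9 and Slfn10-ps). A pair of them leave the Slfn4 donor at 82993258 for acceptors at 83026046 and 83067779 and had identical counts in all 20 mice, 94 reads each.

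Correlations between members are given as a description over 20 mice that share groups and libraries. Slfn5 and Slfn8 had r = 0.90 on log2 CPM (0.87 after the group means were taken out), and Slfn1 and Slfn2 had r = 0.80 (0.87). Other pairs with a within-group r above 0.6 were Slfn1 and Slfn4 (0.72), Slfn3 and Slfn9 (0.69), Slfn2 and Slfn4 (0.66) and Slfn8 and Slfn9 (0.63), and the lowest was that of Slfn1 and Slfn3 (−0.55). The genes whose pattern was most like that of Slfn8, out of 15392, were Ifi204 (r = 0.94), Slfn5 (0.90) and Epsti1 (0.90), and those most like Slfn5 were Slfn8 (0.90), Ifi204 (0.89) and Cep63 (0.87). For the others the closest gene was Tceb3 for Slfn1 (0.95), Fbxo38 for Slfn2 (0.89), Gm16589 for Slfn3 (0.91), 1110038D17Rik for Slfn4 (0.87) and Echs1 for Slfn9 (0.89).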

How the data were processed

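Raw gene counts and raw splice junction read counts for each of the 20 libraries were deposited by the authors. Reads of 126 bases from strand-marking ribosome-depleted libraries were aligned to mm9 with TopHat2 2.0.8, per the labels and the study's methods. The counting program and its handling of strand were not given in the sources used here. All libraries were assigned to groups from their titles, and nothing says which mice of a genotype shared donor marrow, so p-values measure the spread between these mice.

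Gene counts were filtered (filterByExpr), scaled by TMM and tested with edgeR 4.0.16 in R 4.3.3 (robust quasi-likelihood fit, prior count 2), separately on the 10 mice of each of 5 comparisons and on all 20 for the interaction of genotype and drug. Benjamini-Hochberg adjustment (FDR) ran over all genes tested, and genes below 10% were called. Fold changes are log2, the second-named group over the first, and CPM uses TMM library sizes. Cassette exon events with a mean of 10 or more reads were tested with edgeR on inclusion and skipping counts, with a coefficient for each mouse, a negative binomial dispersion of 0 and calls at FDR below 10% and a Ψ difference over 0.01. Every event whose middle exon belongs to Slfn4 was left out of these tests. A Slfn3 event that starts from the Slfn4 donor at 82998948 was kept. On simulated counts the gene test recovered 71.5% of 200 genes changed by a log2 difference of 1 among 14763 genes of the drug comparison in U2AF1(WT) marrow, with 10.62% false among its calls. The event test recovered 78% of 200 of 5000 simulated events in the same comparison, changed by 1.5 on the logit scale, with 10.86% false. The spread between mice in the simulated events was set, not estimated from the data. Smaller changes were not simulated in either test.

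The members and all gene lists were chosen with earlier results of these data known. Named genes were the 7 members, the other Schlafen genes, the 5 nearest tested genes on each side of the cluster, and the genes with the largest called changes in the interferon, quiescence, tRNA stress and cell type lists. Unannotated exons, joint skipping in Slfn4 and the run shared by promoters were picked after their values were seen. Alternatives were DESeq2 1.42.0, its size factors, no filter, 1 model of all mice, FDR 5%, limma 3.58.1 on Ψ, an estimated dispersion for events, a replicate block, other junctions for Ψ and leaving out each mouse. A result among the interferon signalling genes is not reported here.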

Additional observations from a re-analysis of the deposited data

Results flagged for a closer look

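Of 68 groups of 5 mice examined for a single distant value, 2 were flagged, and chance flags about 1 in 20 such groups. The share of reads skipping the long untranslated exon of Slfn4 was 0.0323 in sudemycin D6-treated U2AF1(WT) mouse 8 and 0.014 to 0.0176 in the other 4 mice of its group. The summed CPM of the interferon-stimulated genes was 1623 in the same mouse and 666.3 to 778.0 in the others.

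A signal outside the compared measurements came from the same library. A junction joining the first exon region of Slfn1 (82930564) to Slfn4 (82988774) had 96 reads in sudemycin D6-treated U2AF1(WT) mouse 8 and 0 to 2 in the other mice.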

How the results depend on the processing

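The number of members called kept to 2 of 6 for genotype under vehicle except for 1 with the replicate block (1 to 2 without any 1 mouse), and for genotype under sudemycin D6 it was 1, or 2 with the replicate block, which called Slfn5 (0.62, FDR = 0.0224), and 1 without any 1 mouse. With the block, Slfn1 under vehicle was 0.28 (FDR = 0.118). For drug it was 2 in U2AF1(WT) marrow (1 to 2 without any 1 mouse) and 2 in U2AF1(S34F) marrow, which became 1 with no filter, in the model of all mice and at FDR 5% (1 to 2 without any 1 mouse). For both together it was 2 (2 to 4 without any 1 mouse, 4 without vehicle-treated U2AF1(WT) mouse 2), and for the interaction 0. DESeq2 called 116 genes for the interaction against 2 with edgeR, and 0 members in each. Slfn5 between genotypes under vehicle was called without vehicle-treated U2AF1(S34F) mouse 5 (−0.47, FDR = 0.0316), and its drug difference in U2AF1(S34F) marrow was −0.48 without that mouse.

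Same-numbered mice of the genotypes did not deviate together (r = 0.066, 0.133 and −0.048 under vehicle, and 0.073, 0.116, 0.211 and −0.111 under sudemycin D6), so the numbers were not taken as pairs. The replicate block, run on the genotype comparisons, also moved the count of interferon-stimulated genes called from 13 to 6 under vehicle and from 7 to 11 under sudemycin D6. For drug and for both together no paired analysis was possible because the drug groups share no mouse number and the groups with both or neither share 1.

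For the Slfn4 exon, Ψ differed by −0.1052 (genotype under vehicle), −0.1333 (genotype under sudemycin D6) and −0.1989 (both) with the downstream inclusion junction alone, and for both by −0.0952 with the upstream junction alone and −0.1594 with every annotated skipping junction. Without any 1 mouse it ranged from −0.0607 to −0.0368, −0.0828 to −0.066, −0.064 to −0.0471, −0.0932 to −0.0692 and −0.1348 to −0.1248 for genotype under vehicle, genotype under sudemycin D6, drug in U2AF1(WT), drug in U2AF1(S34F) and both.

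Values that changed sign were uncalled and near 0. Slfn2 between genotypes under sudemycin D6 was 0.11 with the replicate block (−0.11 to 0.049 without any 1 mouse), and the Slfn3 interaction was 0.01 with DESeq2, 0.009 with its size factors and 0.025 with no filter (−0.066 to 0.068). Without any 1 mouse, Slfn1 for drug in U2AF1(WT) ranged from −0.13 to 0.12, Slfn2 from −0.038 to 0.099 there, from −0.15 to 0.009 for drug in U2AF1(S34F) and from −0.071 to 0.099 for both, and Slfn8 from −0.22 to 0.035 for the interaction, −0.067 to 0.087 for genotype under sudemycin D6 and −0.002 to 0.23 under vehicle. Ψ of the Slfn5 exon ranged from −0.0277 to 0.0388 and −0.0247 to 0.039 for genotype under vehicle and sudemycin D6, and that of the Slfn8 exon from −0.0278 to 0.0242 and −0.0207 to 0.0309 for drug in U2AF1(WT) and U2AF1(S34F). The causes were not tested. limma and the estimated dispersion also called 0 member events, but over all events they called 155 and 1, 160 and 2, 32 and 0, 83 and 0, and 637 and 1 in the order of comparisons above, so the 0 carries little weight.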
